A study of Rattus norvegicus with 145 samples.

Results

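Adgrg2 is the gene of adhesion G protein-coupled receptor G2, also known as Gpr64 or He6, and it is 1 of the 17337 genes counted in rat livers after gavage with acetamide or water. It was chosen by its values in these same dose groups, as a receptor gene that appeared to be switched on by acetamide, so its levels against dose are a description and carry no test. The count of the gene itself, its level as CPM, the count scaled to the size of the library, and the genes that varied with it from rat to rat are given here. The name of a switched-on gene held against the control females, in which no rat had more than 3 reads. It did not hold for the males, since every control male had more than 3 reads of Adgrg2.

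Adhesion G protein-coupled receptors carry a long extracellular part that is cut from the membrane part during maturation, and a short tethered stretch at the cut activates the receptor. They signal through heterotrimeric G proteins, which pass the signal to adenylyl cyclases and cAMP or to phospholipase C and protein kinase C, and arrestins, G protein-coupled receptor kinases and RGS proteins end it. Adgrg2 is best known from the ducts of the male reproductive tract, where it takes part in fluid reabsorption and is needed for male fertility. Its gene lies on the X chromosome. It is not a known marker of hepatocytes.

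In experiment A, Hsd:WI males of 9 to 10 weeks received acetamide by daily gavage for 7 days at 0, 30, 100, 300 and 1000 mkd, where mkd stands for mg/kg/day, and livers were taken on day 8 after an overnight fast. Experiment B used Crl:WI males and females of 8 to 10 weeks at 0, 300, 500, 750, 1000 or 1500 mkd for 7 or 28 days, with livers taken on day 8 or day 29. All rats, controls included, were Wistar rats that received the water vehicle by gavage and no other agent, and each of the 29 groups held 5 rats. RNA came from the left lobe, a mix of all liver cells, so more cells with a transcript and more transcript per cell cannot be told apart.

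Between 15449716 and 39986531 reads per rat fell on genes, and the scaling factor for RNA composition (TMM) ranged from 0.735 to 1.90. The summed level of 8 hepatocyte markers lay between 188145 and 369813 CPM in the controls of the 5 data sets, as in liver. At the highest dose it lay between 72469 and 237904 CPM in experiment A, against 243416 to 326889 in its controls, and between 87204 and 187158 CPM in females of day 29, against 192749 to 369813, with 3 of 8 markers called lower in each. In the other data sets the ranges overlapped and none was called lower. Of the 8 markers, 1 was called higher in females of day 29 and 1 in males of day 29. Of all genes, 7.45% were called lower in experiment A and 3.54% in females of day 29. The shares called higher were 9.55% in females of day 29 and 3.16% in males of day 29. In the males of day 29 at 1500 mkd, replicate 3 stood apart from its group, with 243 CPM of Mki67, the gene of the Ki67 proliferation antigen, against 3.07 to 14.1 CPM in the other 4 rats. The study reported the same rat as an outlier in Ki67 labeling, with no rise in its other endpoints of liver injury. It left the rat out of its benchmark dose modelling. For Adgrg2, the cell cycle genes and the counts of signalling genes, values of this group are given with and without this rat.

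The letters at the start of the gene are shown for Adgrg2 and for Cdca8, a gene of the chromosomal passenger complex whose level was among those closest to it by both measures of likeness used below. Both are RefSeq windows of 300 bases of the GRCr8 build around a gene start, most of it before the start, printed 5′ to 3′ on the gene's strand. Capitals mark each CCAAT and each TTTGAA, read on both strands. The Adgrg2 window, at chrX:38179786-38180085 on the minus strand, lies inside the gene's span, so other transcripts of the gene start elsewhere, and the start used in liver is not known from these counts. The Cdca8 window is at chr5:142483150-142483449 on the minus strand.
Adgrg2: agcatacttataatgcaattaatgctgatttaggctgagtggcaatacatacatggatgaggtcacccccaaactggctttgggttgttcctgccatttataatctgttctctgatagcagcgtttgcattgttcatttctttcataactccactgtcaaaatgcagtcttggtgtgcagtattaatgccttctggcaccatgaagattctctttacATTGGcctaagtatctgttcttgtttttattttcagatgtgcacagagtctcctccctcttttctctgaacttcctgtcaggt
Cdca8: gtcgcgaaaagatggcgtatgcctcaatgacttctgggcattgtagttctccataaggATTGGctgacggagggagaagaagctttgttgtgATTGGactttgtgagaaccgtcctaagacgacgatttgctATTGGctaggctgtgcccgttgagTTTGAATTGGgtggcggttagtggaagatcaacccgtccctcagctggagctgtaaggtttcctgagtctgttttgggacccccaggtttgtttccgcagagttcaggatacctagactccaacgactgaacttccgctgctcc
TTTGAA, the core of the cell cycle homology region found at many mitotic genes, was absent from the Adgrg2 window and present once in that of Cdca8, where it shares 1 base with a CCAAT read on the other strand. Of 33469 such windows, 18.3% held TTTGAA, and 6 of the 11 windows available among the 12 genes most like Adgrg2 held it, those of Kif22, Mki67, Plk4, Bub1b, Cdca8 and Parpbp. CCAAT was present in 37.5% of all windows, once in that of Adgrg2 and in 6 of the 11. TGACG, the core of the cAMP response element, present in 21.2% of windows, was not found in that of Adgrg2, nor were the AP-1 site TGANTCA (7.33%) and the GC box GGGCGG (33.1%), while TATAAA, found in 14.2%, occurred once. Matches are letters in a window and not sites of binding.

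Adgrg2 was a gene of low level in every group. Over all data sets, 6 rats had no read of it and 116 had more than 3. The median over rats was 37.5 reads in males of day 8, 24.0 in males of day 29, 18.0 in experiment A, 7.0 in females of day 8 and 2.5 in females of day 29. A floor of 3 reads per rat is used below for groups in which no rat exceeded it, and it covers counting error only.

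**Figure D1:**
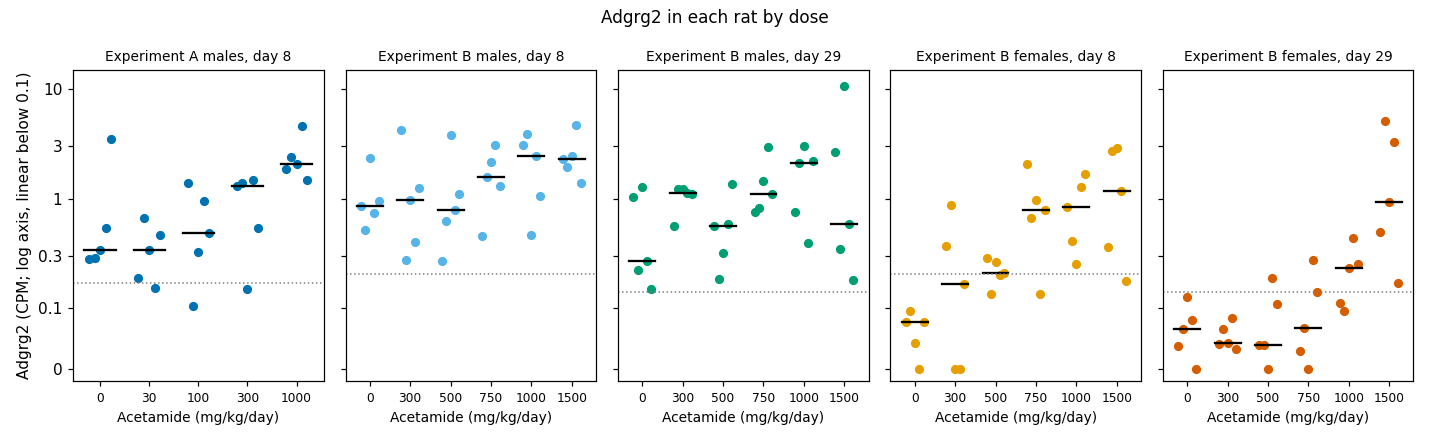
Adgrg2 level in CPM (vertical axis, logarithmic above 0.1 and linear below) in each of 5 rats per dose of acetamide (horizontal axis, mg/kg/day), 1 panel per data set. Points are rats, bars are group medians and the dotted line is the highest level that 3 reads stand for in any rat of the panel; the control females lie under the line and most males lie above it.

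In females of day 8, Adgrg2 was near the detection floor in the controls and was counted in all rats from 500 mkd upward. The 5 control females had 2, 3, 1, 0 and 2 reads, a mean of 0.0587 CPM ± 0.0382 (SD, n = 5). At 300 mkd the rats had 9, 25, 0, 0 and 5 reads, so that 3 of them exceeded every control and 2 had none. This was the only treated group of the data set that overlapped the controls. At 500 mkd the reads were 9, 4, 7, 6 and 6, a narrow range with a mean of 0.219 CPM ± 0.0584, and at 750 mkd they were 40, 20, 30, 4 and 28, with a mean of 0.921 CPM ± 0.707. At 1000 mkd the rats had 24, 6, 7, 39 and 49 reads and a mean of 0.891 CPM ± 0.596. The groups of 750 and 1000 mkd overlapped over most of their range. At 1500 mkd the reads were 11, 91, 57, 23 and 3, which gives 1.46 CPM ± 1.27. The lowest of these rats, at 3 reads, had no more reads than the highest control and exceeded it in CPM only because its library was smaller. Against a floor of 0.120 CPM for the controls, the mean level was at least 2.36-fold higher at 300 mkd, at least 1.83-fold at 500 mkd, at least 7.67-fold at 750 mkd, at least 7.42-fold at 1000 mkd and at least 12.2-fold at 1500 mkd. Without the rat with 25 reads, the mean at 300 mkd was 0.134 CPM, close to the floor.

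In females of day 29, the group means stayed under the floor up to 750 mkd. All rats of a group exceeded 3 reads only at 1500 mkd, the lowest of them with 4. The controls had 1, 2, 3, 2 and 0 reads, a mean of 0.0623 CPM ± 0.0470 (SD, n = 5). The rats given 300 mkd had 1, 2, 1, 2 and 1 reads. Those given 500 mkd had 1, 1, 0, 6 and 3, and those given 750 mkd had 1, 2, 0, 7 and 3. These means of 0.0534, 0.0756 and 0.103 CPM lie under the floor of 0.117 CPM, and no fold is given for them. At 1000 mkd, the reads were 3, 3, 6, 13 and 8, with a mean of 0.227 CPM ± 0.138, at least 1.94-fold above the floor, and 3 of 5 rats exceeded every control. At 1500 mkd the rats had 17, 225, 36, 97 and 4 reads and a mean of 2.00 CPM ± 2.14, at least 17.2-fold above the floor. All 5 exceeded every control, with a range from 0.170 to 5.14 CPM. Replicate 2 alone held 51.5% of the summed level of this group, and without it the mean was 1.21 CPM. The same dose of 750 mkd thus went with 0.921 CPM on day 8 and 0.103 CPM on day 29, values from different rats and separate tables that were not tested against each other.

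In males of day 8 in experiment B, the controls already carried the transcript, and the treated groups were higher in mean but overlapped them. Control males had 23, 18, 70, 16 and 23 reads, a mean of 1.08 CPM ± 0.720 (SD, n = 5). At 300 mkd the reads were 115, 4, 23, 12 and 27, and at 500 mkd they were 7, 17, 121, 20 and 27. In each of these groups 1 rat stood far above the other 4, which lay within or below the control range. At 750 mkd the rats had 13, 48, 66, 95 and 36 reads, at 1000 mkd 113, 107, 9, 57 and 39, and at 1500 mkd 56, 55, 66 and 45 in replicates 1, 2, 3 and 5, with replicate 4 highest at 4.73 CPM. The means at these 3 doses were 1.71 ± 0.970, 2.18 ± 1.42 and 2.56 CPM ± 1.28, which are 1.58-, 2.01- and 2.36-fold of the control mean. Of the rats at 1500 mkd, 2 of 5 exceeded every control and none lay below the control range.

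In males of day 29, the group medians at 300 to 1000 mkd lay above the control median, and the mean of the highest dose rested on 1 rat. The control reads were 30, 6, 39, 8 and 4, a mean of 0.594 CPM ± 0.530 and a median of 0.269 (n = 5). At 300 mkd the rats had 15, 37, 29, 31 and 32 reads, at 500 mkd 17, 4, 7, 14 and 38, and at 750 mkd 21, 19, 37, 100 and 27. The group of 300 mkd lay within the control range, as did 4 of 5 rats of 500 mkd. At 1000 mkd the reads were 18, 67, 91, 10 and 63, with a mean of 1.70 CPM ± 1.09 and 3 of 5 rats above every control. At 1500 mkd they were 69, 8, 397, 16 and 7, a mean of 2.90 CPM ± 4.48. Replicate 3, the rat with the high Mki67, held 73.9% of the summed level at 10.7 CPM, the highest of all rats. The mean of this group was 4.88-fold of the control mean with this rat, and without it the mean level was 0.947 CPM. The group median, 0.586 CPM, was 2.18-fold of the control median.

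In males of experiment A, Adgrg2 was higher at 1000 mkd than in 4 of the 5 controls. The control reads were 8, 8, 9, 18 and 106, so the mean of 0.986 CPM ± 1.40 (SD, n = 5) was set by replicate 5, at 3.48 CPM, and was 0.363 CPM without it. The rats given 30 mkd had 6, 23, 6, 4 and 11 reads, those given 100 mkd 28, 3, 7, 29 and 14, and those given 300 mkd 35, 35, 4, 44 and 16. These groups lay at or below the highest control, with medians of 0.340, 0.489 and 1.29 CPM against 0.340 CPM in the controls. At 1000 mkd the reads were 66, 136, 70, 171 and 60, a mean of 2.47 CPM ± 1.22, which is 2.51-fold of the control mean, and a median 6.08-fold of the control median. Only 1 of these 5 rats exceeded the highest control, while none lay below 1.47 CPM.

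The share of genes that changed at the highest dose sets the background for these values. A gene was called by edgeR when it differed 1.5-fold or more and its p, adjusted by Benjamini-Hochberg over all genes tested, was at most 0.05. In experiment A, 14.0% of 11323 genes were called higher and 7.45% lower, and 9.01% had every treated rat above every control. In males of day 8 the called shares were 0.142% higher and 0.0354% lower of 11304 genes, with 1.45% above every control, and in males of day 29 they were 3.16% and 1.76% of 11279 genes, with 2.86%. In females of day 8, 0.522% of 11497 genes were called higher, 0.183% lower and 1.65% had all treated rats above all controls, a group that includes Adgrg2. In females of day 29 these shares were 9.55%, 3.54% and 3.51% of 11451 genes, and Adgrg2 again was among the last. Nothing is read from this for Adgrg2, since these contrasts chose it.

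Male livers held more Adgrg2 than female livers in untreated rats of experiment B, and the ranges of the sexes overlapped at the highest dose. On day 8 the control males lay between 0.514 and 2.34 CPM and the control females between 0 and 0.0963 CPM, with no overlap. The male median of 0.856 CPM was at least 7.13-fold that of the females, whose median lay under the floor. On day 29 the ranges of the controls, 0.148 to 1.29 CPM in males and 0 to 0.126 CPM in females, did not overlap either, and the male median was at least 2.31-fold higher. The lowest of these males had 4 reads and the highest of these females had 3, so the ranges were barely apart. At 1500 mkd, where the ranges overlapped on both days, the male median was 1.95-fold the female median on day 8, at 2.30 against 1.18 CPM, and 0.634-fold on day 29, at 0.586 against 0.924 CPM. Between these ends, males and females were also apart on day 29 at 300 and 750 mkd, and they overlapped at every treated dose of day 8. The sexes were counted in separate tables, and the gap is given as a description.

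Ordered by their medians, the 29 groups ran from 0.0405 CPM in females of day 29 at 500 mkd to 2.43 CPM in males of day 8 at 1000 mkd. The lowest 8 places were held by female groups. Every group overlapped with the next in this order, so no neighbouring pair of groups was separated by more than the spread between rats.

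The genes whose levels followed those of Adgrg2 most closely were mostly genes of mitosis and DNA repair. Likeness was measured by Spearman's rank correlation over the 25 or 30 rats of each data set and averaged over the 5 data sets, among the 11065 genes tested in all of them. The 12 genes with the highest mean were Arhgap11a (0.68), Cdca8, Cd276, Parpbp, Haus4, Kif22, Plk4, Bub1b, App, Mki67, Ccdc34 and Chek2 (0.66), and the next gene outside the list was at 0.66. The median over all genes was 4.8e-05, and 95% of genes lay below 0.426. Rats of a data set share the dose series, and each point shares a library and its scaling between both genes, so these values describe and carry no p.

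**Figure D2:**
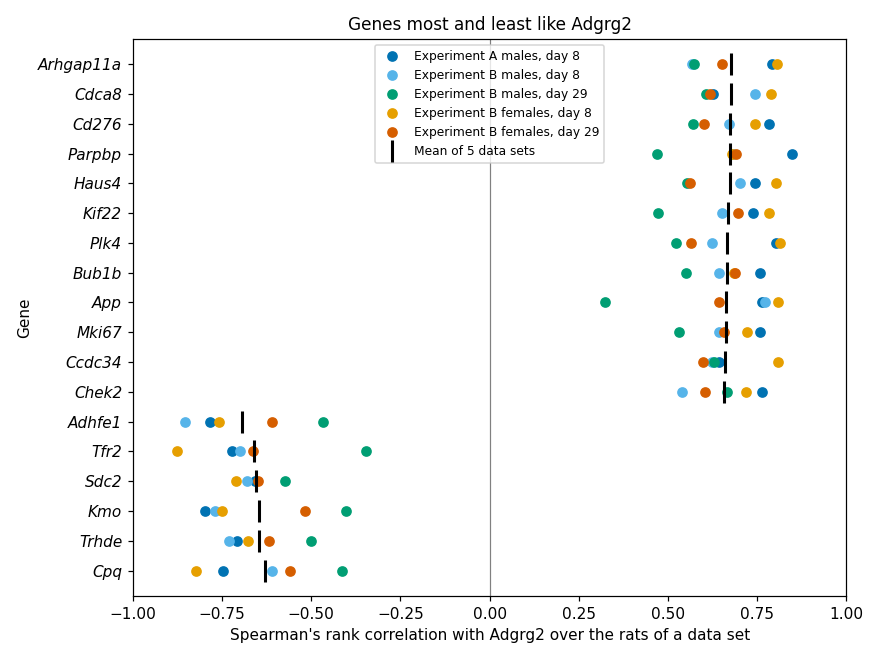
Spearman's rank correlation with Adgrg2 over the rats of a data set (horizontal axis) for the 12 genes with the highest and the 6 with the lowest mean over 5 data sets (vertical axis). Points are data sets and black bars are means; every data set lies to the right of 0 for the upper 12 genes and to the left for the lower 6, with the males of day 29 at the low end for App (0.32).

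Several of these genes act at the spindle and the centrosome. Arhgap11a is a GTPase activating protein of dividing cells, Cdca8 (borealin) and Bub1b guard chromosome attachment, Haus4 belongs to the augmin complex that branches microtubules, Kif22 is a chromosome-moving kinesin and Plk4 starts centriole duplication. Parpbp and Chek2 act in DNA repair and its checkpoint. Cd276 (B7-H3), an immune checkpoint ligand, and App, the amyloid precursor protein, are not cell cycle genes. In the females of day 29, Cd276 stood at 3.87 CPM ± 0.522 in controls and 11.8 CPM ± 5.87 at 1500 mkd, with 5 of 5 treated rats above every control, and in experiment A at 6.89 CPM ± 2.51 and 22.0 CPM ± 9.22 at 1000 mkd, again with 5 of 5. App stood at 67.6 CPM ± 17.5 and 141 CPM ± 26.1 in the females of day 29, and the rat with the most Adgrg2 also had the most App in all 4 data sets of experiment B.

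Genes that ran opposite to Adgrg2 were metabolic and surface genes of the liver cell. The 6 lowest mean values were those of Adhfe1 (-0.69), which oxidises hydroxy acids in mitochondria, Tfr2 (-0.66), the iron-sensing transferrin receptor 2, Sdc2 (-0.65), the heparan sulfate proteoglycan syndecan 2, Kmo (-0.65), a kynurenine pathway enzyme, Trhde (-0.65), a peptidase that degrades thyrotropin-releasing hormone, and Cpq (-0.63), a carboxypeptidase. In the females of day 29, Tfr2 was at 784 CPM ± 94.4 in controls and 476 CPM ± 127 at 1500 mkd, and all 5 treated rats lay below every control. Trhde was at 15.8 CPM ± 1.68 in the controls of experiment A and 6.17 CPM ± 2.72 at 1000 mkd, with 5 of 5 below. Of the 30 rats of either sex on day 29, the rat with the most Adgrg2 ranked last for each of these 6 genes.

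Likeness within dose groups leaves out the differences between group means, and there mitotic genes and others stood side by side. It does not leave out differences between rats of the same dose in their response, so independence from the dose is not shown. After the mean of its own group was taken from each rat, the highest Pearson correlations with Adgrg2 over the deviations of log2 CPM in all rats were those of Cd276 (0.65), Cdca8 (0.64), Myh10 (0.62), Haus4 (0.62), Tusc3 (0.60), Plk4 (0.59), Kif3a (0.59) and Arhgap11a (0.59), and 5 of these 8 were among the 12 above. Cdca8, Haus4, Plk4 and Arhgap11a are the mitotic genes among them. Myh10 encodes non-muscle myosin heavy chain IIB, Tusc3 a subunit of the oligosaccharyltransferase, and Kif3a a kinesin of cilia. The 95th percentile of all genes was 0.339. Adhfe1 and Tfr2 were the lowest of all genes by this measure too, at -0.62 and -0.57.

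The list of 24 cell cycle genes, from replication (Mcm2 to Mcm7, Pcna, Rrm2) to mitosis (Cdk1, Ccnb1, Aurkb, Plk1), followed Adgrg2 as a group. Of the 24, 23 had a mean correlation over the 95th percentile of all genes, and their median was 0.619. Medians of the cell type lists were 0.355 for macrophages (10 genes), 0.261 for cholangiocytes (5), 0.257 for stellate cells and fibroblasts (8), 0.217 for T and NK cells (5), 0.182 for endothelial cells (6), -0.061 for B cells (2), -0.102 for neutrophils (3) and -0.273 for hepatocytes (8). The cell cycle genes themselves were called higher at the highest dose in 22 of 24 in experiment A, 3 in males of day 8, 18 in males of day 29, 3 in females of day 8 and 22 in females of day 29, with none called lower. In the same order, 14.0%, 0.142%, 3.16%, 0.522% and 9.55% of all genes were called higher. The median log2 fold changes of the 24 genes were 1.73, 1.29, 2.48, 1.57 and 2.20, beside medians of all genes of 0.00, 0.00, 0.07, 0.00 and 0.00. The values of males of day 29 rested on replicate 3 of 1500 mkd, and without it, an alternative added after the values were seen, 6 of the 24 genes were called higher, their median was 0.60, and the mean of Mki67 was 10.0 CPM ± 4.93 against 5.12 CPM ± 2.53 in the controls. The earlier results of these data were known when this list was set up, and its rise is not independent of them.

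**Figure D3:**
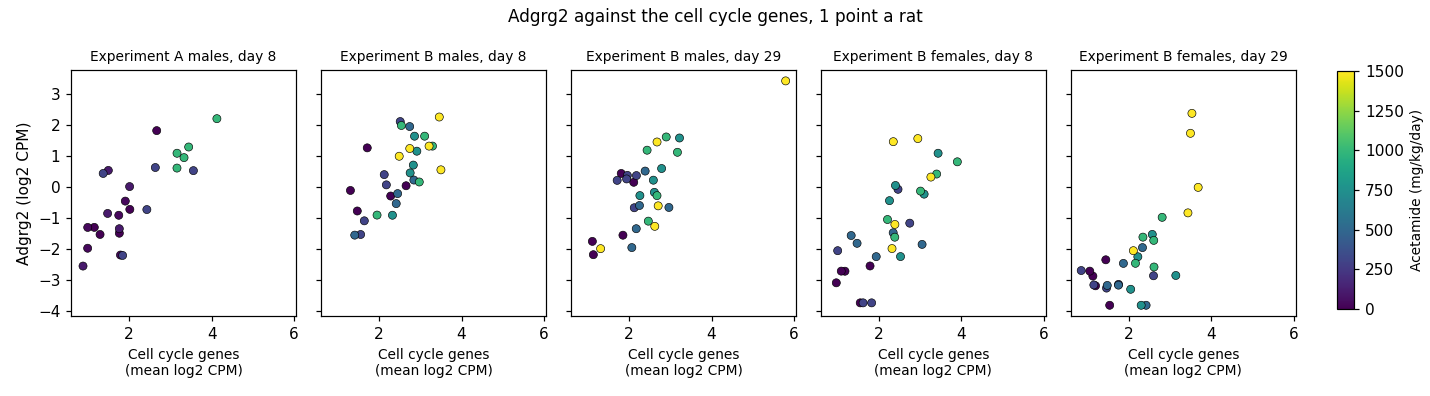
Adgrg2 (vertical axis, log2 CPM) against the mean log2 CPM of 24 cell cycle genes (horizontal axis) in each rat, 1 panel per data set, coloured by dose (mg/kg/day). Rats with more cell cycle transcript held more Adgrg2 in each panel, and the single point at the upper right of the males of day 29 is replicate 3 at 1500 mkd.

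Within groups, the deviation of Adgrg2 and that of a cell cycle score, taken as the average log2 CPM of these 24 genes, correlated at 0.583 over all rats. The value was 0.668 over the 85 males and 0.433 over the 60 females. It was 0.524 over the 25 vehicle control rats alone, which received no acetamide, and 0.591 over the 120 treated rats. By data set it ranged from 0.364 in females of day 29 to 0.763 in males of day 29, where it was 0.611 without replicate 3 of 1500 mkd. Without this rat it was 0.523 over all rats and 0.594 over the males. It was 0.502 without the 6 rats whose Adgrg2 stood apart in their group, an alternative added after the values were seen. In 10 of the 29 groups the rat with the most Adgrg2 also had the highest cell cycle score of its group, in 23 it was the highest or the next, and in 1 it was the lowest. The control of experiment A with 3.48 CPM of Adgrg2 had the highest cell cycle score of its group, with 13.1 CPM of Mki67 against 2.68 to 7.04 in the other 4. The control male of day 8 with 2.34 CPM of Adgrg2 was in the middle of its group, with 5.24 CPM of Mki67 against 3.77 to 17.1. Deviations of Adgrg2 correlated at 0.0345 with sequencing depth and at 0.439 with the TMM factor, whose part in these correlations was not tested. On day 29 the rat with the most Adgrg2 ranked last of 30 in the mean log2 CPM of the hepatocyte markers in both sexes, and in experiment A it ranked 24 of 25. The part of this shift in the Adgrg2 level was not tested.

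Other adhesion receptors were called in 3 of the 5 data sets, and among those that rose were Emr4 and Adgre5, which are best known from leukocytes. Of 30 other family genes looked for, 17 were in the files and 12 or 13 passed the filter on low counts. Emr4 (Adgre4), a receptor gene of myeloid cells, rose in experiment A from 3.68 CPM ± 1.07 to 8.73 CPM ± 4.33, a log2 fold change of 1.25 ± 0.27 (SE; adjusted p = 0.0017 by edgeR). It also rose in females of day 29 from 3.62 CPM ± 0.362 to 9.04 CPM ± 3.64 (1.32 ± 0.29; adjusted p = 0.0024), and all treated rats lay above all controls both times. Adgre5 (Cd97), a receptor found on most leukocytes, rose in the same data sets, by 1.15 ± 0.19 (adjusted p = 0.00031) and 0.87 ± 0.19 (adjusted p = 0.0025), with 5 of 5 treated rats above the controls in each. Adgre1 (Emr1), which is also on the macrophage list, was tested in all 5 data sets and called in none. Its change was 0.58 ± 0.21 in experiment A (adjusted p = 0.042), under the fold required. In females it was 0.52 ± 0.27 on day 29 (adjusted p = 0.18) and -0.07 ± 0.23 on day 8. Adgrg5, of the same subfamily as Adgrg2, rose by 1.42 ± 0.45 in experiment A (adjusted p = 0.020) and by 1.75 ± 0.53 in females of day 29 (adjusted p = 0.020), where 3 and 2 of 5 rats exceeded every control, and the latter call was lost in 5 of 16 alternatives. Adgrf3 was called in experiment A (1.34 ± 0.41, adjusted p = 0.016).

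Celsr2, a large cadherin-type receptor of planar cell polarity, fell in experiment A by 1.48 ± 0.42 on the log2 scale (adjusted p = 0.011), with 5 of 5 treated rats below every control. In males of day 29 it fell by 1.10 ± 0.34 (adjusted p = 0.047) and the latrophilin gene Adgrl2 fell by 0.59 ± 0.18 (adjusted p = 0.048), and these calls were lost in 9 and 10 of 16 alternatives. Of the tested family genes, 4 of 12 were called higher and 1 lower in experiment A, 0 and 2 of 13 in males of day 29, and 3 and 0 of 13 in females of day 29, beside the shares of all genes given above. No family gene was called on day 8 of experiment B by edgeR or DESeq2, and at an unadjusted p under 0.05 there were 0 of 12 in males and 2 of 13 in females, beside 12.6% and 14.7% of all genes. The median log2 fold change of the family was 0.60 in experiment A, -0.01 in males of day 8, 0.26 in males of day 29, -0.07 in females of day 8 and 0.47 in females of day 29.

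**Figure D4:**
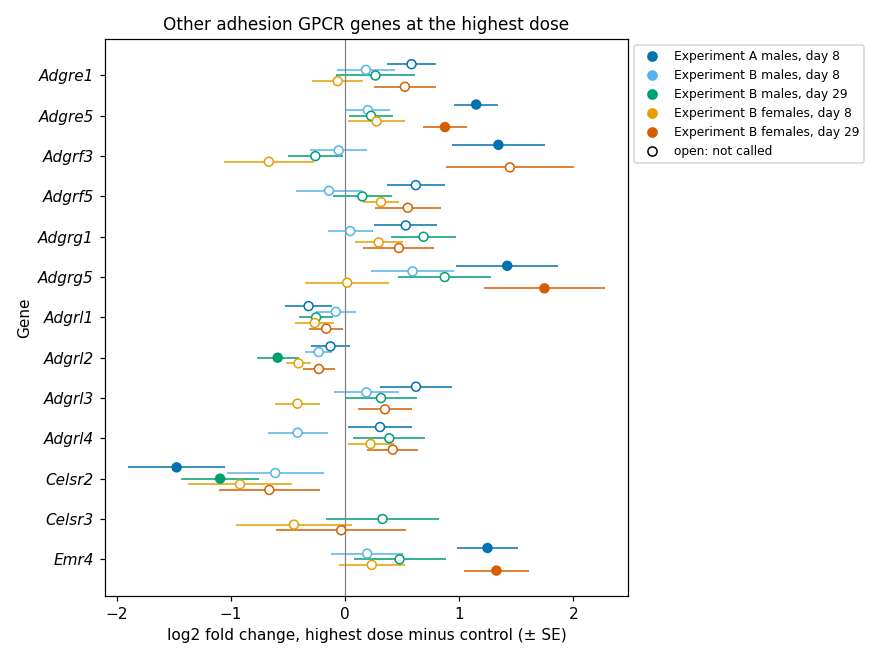
Log2 fold change at the highest dose against control (horizontal axis, ± SE, n = 5 rats a group) for each other adhesion receptor gene tested (vertical axis), by data set. Filled points were called; filled points to the right belong to experiment A and to females of day 29.

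Of the rest of its subfamily, Adgrg1 was tested in all 5 data sets and called in none, at 1.81 CPM ± 0.619 in controls and 2.60 CPM ± 0.895 at 1000 mkd in experiment A (log2 fold change 0.53 ± 0.28, adjusted p = 0.15). Adgrg7 was listed with 0 reads in every rat. Macrophage markers were called higher in 6 of 10 in experiment A, where their summed level was 534 to 1626 CPM in controls and 1325 to 2370 CPM at 1000 mkd, and in 4 of 10 in females of day 29, with 1007 to 1244 and 1151 to 2269 CPM. T and NK cell markers were called higher in 8 of 9 and 2 of 8 in these data sets, with sums of 7.19 to 9.44 and 10.6 to 32.1 CPM in experiment A and of 6.92 to 15.4 and 13.1 to 21.8 CPM in females of day 29. Of all genes, 14.0% were called higher in experiment A and 9.55% in females of day 29. Endothelial markers were called higher in 3 of 6 and 2 of 6 in this order. For stellate cells and fibroblasts the counts were 1 of 8 and 2 of 8. For cholangiocytes they were 0 of 5 and 1 of 5. Neutrophil markers were called higher in 0 of 3 and 1 of 3. In experiment A 2 of them were called lower, beside 7.45% of all genes. No B cell marker was called. The part of these cells in the receptor changes was not tested.

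Genes that carry or end the signal of such receptors were called in the same data sets as the receptors. Of 117 signalling genes in 6 lists, 114 were in the files and 104 or 105 were tested. In experiment A 26 of 104 were called higher and 5 lower, beside 14.0% and 7.45% of all genes. In females of day 29 they were 17 and 2 of 104, beside 9.55% and 3.54%, and in males of day 29 1 and 4 of 105, beside 3.16% and 1.76%. None was called on day 8 of experiment B by edgeR, where 14 of 104 in males and 14 of 105 in females had an unadjusted p under 0.05, beside 12.6% and 14.7% of all genes, and DESeq2 called 2 in each sex. The median log2 fold change of the tested genes was 0.19 in experiment A, 0.15 in females of day 29, 0.01 in males of day 29, -0.02 in males of day 8 and 0.01 in females of day 8. In males of day 29 the total of 5 calls was 13 without replicate 3 of 1500 mkd, and in females of day 29 the total of 19 was 8 without replicate 2.

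Among the G proteins, the inhibitory subunit gene Gnai1 rose in experiment A from 2.05 CPM ± 0.268 to 6.02 CPM ± 2.82 (log2 fold change 1.56 ± 0.26, adjusted p = 0.00031) and in females of day 29 from 1.36 CPM ± 0.279 to 2.96 CPM ± 1.18 (1.12 ± 0.26, adjusted p = 0.0044), with 5 of 5 rats above every control in both. The beta and gamma subunit genes Gnb4 and Gng2 rose with it in these data sets, by 1.28 and 1.34 in experiment A and by 0.95 and 0.92 in females of day 29, where Gnb5 fell by 0.78. No G protein gene was called in the males of day 29.

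In the cAMP arm, 5 of 24 genes were called higher and 1 lower in experiment A and 3 higher in females of day 29, beside 14.0%, 7.45% and 9.55% of all genes. The adenylyl cyclase genes Adcy4 and Adcy7 rose in both, Adcy4 from 6.76 CPM ± 0.670 to 14.0 CPM ± 2.94 in experiment A (adjusted p = 0.00045) with all 5 rats above the controls, while the call of Adcy7 in females of day 29 was lost in 5 of 16 alternatives. Adcy1 fell in experiment A by 1.43 (adjusted p = 0.040), a call lost in 8 of 16 alternatives. No treated rat lay below every control, and the controls were spread from 4.03 to 57.7 CPM. In females of day 29 Adcy1 was not called. The catalytic subunit gene of protein kinase A, Prkacb, fell in males of day 29 from 2.71 CPM ± 0.338 to 1.17 CPM ± 0.612 (adjusted p = 0.022, lost in 4 of 16 alternatives), with 5 of 5 below every control.

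Genes that cAMP is known to induce were called in numbers near the shares of all genes. In experiment A 2 of 12 were called higher and 1 lower, beside 14.0% and 7.45% of all genes. In females of day 29 1 of 12 was called higher, beside 9.55%. Of 12, Nr4a1 rose in experiment A by 1.48 ± 0.46 (adjusted p = 0.018) and Nr4a3 by 1.14 ± 0.40 (adjusted p = 0.036), while Crem fell by 0.62 ± 0.22 (adjusted p = 0.033), and the calls of Nr4a3 and Crem were each lost in 6 of 16 alternatives. Ppargc1a rose in females of day 29 by 1.10 ± 0.39 (adjusted p = 0.047), lost in 10 of 16 alternatives. The medians of the 12 were -0.40 in experiment A, -0.16 and -0.51 in males of day 8 and day 29, and -0.40 and -0.32 in females of day 8 and day 29.

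In the phospholipase C arm, Plcb2 and Prkcb, both abundant in blood cells, rose in experiment A and in females of day 29. Plcb2 went from 5.29 CPM ± 0.201 to 11.9 CPM ± 2.70 in the former (adjusted p = 0.00011). The liver inositol trisphosphate receptor gene Itpr2 fell in males of day 29 from 76.8 CPM ± 6.29 to 43.6 CPM ± 5.50 (log2 fold change -0.81 ± 0.14, adjusted p = 0.0083), with 5 of 5 rats below every control, and Prkce fell by 0.86 ± 0.26 (adjusted p = 0.039), a call lost in 9 of 16 alternatives. The YAP target genes Cyr61 and Ctgf each rose in 1 data set, Cyr61 by 1.07 in experiment A and Ctgf by 1.20 in females of day 29, calls that were lost in 3 and 7 of 16 alternatives.

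Among the genes that end receptor signals, Arrb2 rose in experiment A by 0.94 ± 0.16 (adjusted p = 0.00031) and in females of day 29 by 0.88 ± 0.18 (adjusted p = 0.0018), and so did Adrbk2, which encodes the receptor kinase GRK3, by 1.07 in both. Of the RGS genes, which speed the end of the G protein signal, Rgs16 fell in females of day 29 from 131 CPM ± 46.7 to 18.6 CPM ± 18.6 (log2 fold change -2.82 ± 0.89, adjusted p = 0.026, lost in 3 of 16 alternatives), with no overlap between groups. In total 8 of 21 genes of this list were called higher and 1 lower in experiment A, and 5 and 1 in females of day 29, beside the shares of all genes above. Of the genes known to work with Adgrg2 in the epididymis, 3 were called over all data sets. In experiment A 1 of 6 tested was called lower, beside 7.45% of all genes. In males of day 29 1 of 6 was called higher and 1 lower, beside 3.16% and 1.76%. With so few genes, nothing is read from these counts. The chloride channel gene Cftr rose in males of day 29 from 0.936 CPM ± 0.309 to 2.14 CPM ± 1.29 (adjusted p = 0.024, lost in 4 of 16 alternatives), the estrogen receptor gene Esr1 fell there from 10.1 CPM ± 2.53 to 4.14 CPM ± 2.41 (adjusted p = 0.047, lost in 11 of 16 alternatives), and the glycerol channel gene Aqp9 fell in experiment A from 253 CPM ± 30.1 to 143 CPM ± 64.6 (adjusted p = 0.0073).

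Of the 4 genes tested beside Adgrg2 on the X chromosome, 1 was called in any data set. It was called higher in experiment A and in females of day 29, where 14.0% and 9.55% of all genes were called higher. With 4 genes, nothing is read from this count for the region. In the order of the RefSeq table, Phka2 lies before it and Pdha1, Sh3kbp1 and Bclaf3 (RGD1562161 in the files) after it. Ppef1, also before it, had too few reads to be tested. Phka2, a phosphorylase kinase subunit gene, was called in none of the 5 data sets, at 5.09 CPM ± 1.54 in the controls and 5.93 CPM ± 1.78 at 1500 mkd in females of day 29, and Bclaf3 was called in none either. Pdha1, a pyruvate dehydrogenase subunit gene, was lower in experiment A by a log2 fold change of -0.49 ± 0.10 (adjusted p = 0.00087), under the fold required. Sh3kbp1, an adaptor of receptor endocytosis, rose in experiment A by 0.98 ± 0.18 (adjusted p = 0.00062) and in females of day 29 by 0.74 ± 0.25 (adjusted p = 0.039), a call that was lost in 7 of 16 alternatives. It was not called in females of day 8 (0.22 ± 0.24, adjusted p = 0.73).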

How the data were processed

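Per the labels and the methods of the study, liver RNA of each rat was sequenced from stranded poly(A) libraries, and the authors trimmed the reads with Trimmomatic, aligned them with Bowtie2 to the Rn6 build and counted them on genes with HTSeq. Tool versions and the strand setting of the counting are not given in the sources used here. The authors deposited raw counts for 17337 genes in 5 tables, with no normalization; all values are whole numbers. Lines that name no gene, present for experiment B, held 35.5 to 67.1% of the counts of a rat and were left out. The number of sample columns left out is 0. Day 29 control males are labelled as the other experiment; their titles set their group.

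Each rat is a replicate. CPM used TMM factors. Genes that passed filterByExpr were tested with edgeR 4.0.16 (R 4.3.3) by quasi-likelihood, with all dose groups of a data set in 1 fit, and were called at a 1.5-fold change or more where the adjusted p did not exceed 0.05. The code was tested on simulated counts. DESeq2 1.42.0, other scalings and filters, single rats left out, and the replicate number as a block were the alternatives. Replicate numbers were not taken as pairs of rats. The prior count for log2 CPM was 2. Rats of different data sets were tested only within their own table. Adgrg2 and the gene lists were chosen with earlier results of these data known. The named genes are the family and neighbour genes, the called genes of each signalling list, at most 3 each way by fold change, and the genes most and least like Adgrg2.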

Additional observations from a re-analysis of the deposited data

Results flagged for a closer look

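In 6 of the 29 groups of 5 rats, 1 rat lay so far from the other 4 in Adgrg2 that its gap to the nearest rat exceeded the critical share of the group's range in Dixon's test on the CPM scale. Chance alone gives this in about 1 of 20 groups of normal values, and CPM values of this gene are skewed; on log2 CPM, a scale added after the values were seen, 2 of the 6 remained, the control of experiment A and the male of day 29 at 300 mkd. Of the 6, 5 were high. They were the control of experiment A, replicate 5, at 3.48 CPM, the control male of day 8, replicate 3, at 2.34 CPM, the males of day 8 at 300 mkd, replicate 1, at 4.27 CPM, and at 500 mkd, replicate 3, at 3.81 CPM, and the male of day 29 at 1500 mkd, replicate 3, at 10.7 CPM. The other was low, the male of day 29 at 300 mkd, replicate 1, at 0.559 CPM against 1.09 to 1.23 CPM. No female group held such a rat. Of the 5 high rats, those of experiment A, of day 8 at 300 mkd and of day 29 had the highest cell cycle score of their group.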

How the results depend on the processing

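The mean Adgrg2 level at the highest dose was 1.46 to 2.87 CPM under DESeq2 size factors. Library totals gave 3.98 CPM in males of day 29 in place of 2.90 and 3.48 CPM in experiment A in place of 2.47, and shifted all genes at that dose by 0.55 on the log2 scale in experiment A and by 0.13 to 0.43 in the others. Leaving out each rat in turn gave 0.947 to 3.58 CPM in males of day 29 and 1.21 to 2.46 CPM in females of day 29. Calls in males of day 29 were the least stable. Their 2 adhesion receptor genes became 0 with the replicate block or with the control and highest dose only, and 0 to 2 without each rat; their 5 signalling genes became 9 with DESeq2, 1 with the control and highest dose only and 2 to 13 without each rat. In females of day 29, the control and highest dose only gave 1 adhesion receptor gene in place of 3, 3 signalling genes in place of 19 and 0 neighbours in place of 1; single rats left out gave 8 to 25 signalling genes and 0 to 1 neighbours, and no filter gave 0 neighbours. The 0 signalling genes of day 8 became 2 with DESeq2 in each sex and 0 to 2 without each rat in females. The replicate block moved no other count by over 1.5 times. Same-numbered rats correlated between -0.249 and 0.336, and the numbers were not taken as pairs. Of the 12 genes most like Adgrg2, 6 remained with Pearson's r, 7 without the highest dose, 6 as deviations from the group means, 7 without experiment A, 6 without females of day 29, and 8 to 11 under the other alternatives, 1 of them added after the data were seen. Of 210 changes of single named genes, none reversed, 34 lost their call and 9 gained one in at least 1 alternative. The causes of these shifts were not tested. At 3 reads per rat, levels under 0.120 CPM in females of day 8 and 0.117 CPM in females of day 29 could not be told from absence.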
